A study of Mus musculus with 24 samples.

Results

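The genes described here encode the proteins of the cytosolic ribosome. Members were protein-coding mouse genes with an Rpl or Rps symbol followed by a number, together with Rplp0, Rplp1, Rplp2 and Rpsa, and they numbered 84 of the 46078 Ensembl genes counted, 52 for the large and 32 for the small subunit. Rpl6l, Rps3a2, Rps3a3, Rps4l and Rps12l1 match the symbol pattern but are annotated as pseudogenes and were left out. Of the 84 members, 82 (50 large, 32 small) passed the filter on low counts. Rpl10l had 0 reads in all 24 libraries and Rpl39l had 26 reads in all, and neither was tested.

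Messenger RNA was sequenced from heart tissue of C57BL/6 mice, an inbred strain, with 3 libraries in each of 8 groups. The tested groups were 45 min of ischemia alone (blood flow stopped) and the same ischemia followed by 0.5, 1, 1.5, 3, 6 or 12 h of reperfusion (flow restored), and the controls were sham-operated mice. No mutant allele, transgene or drug is given for any group, and age, sex and the region of the heart sampled are not stated in the labels. Whether replicate libraries stand for different animals is not stated either, so p-values measure the spread between libraries, which may be technical.

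A cytosolic ribosome is built from a large and a small subunit, each a core of ribosomal RNA bound by many small proteins, and most of these proteins are made in equal numbers. Their mRNAs are among the most abundant of any cell and usually start with a C followed by a run of pyrimidines, the terminal oligopyrimidine (TOP) tract, through which mTOR signalling controls their translation. Striated muscle is unusual in carrying Rpl3l, a muscle paralogue that takes the place of Rpl3 in part of its ribosomes. In whole tissue, a change in the number of cells of a type and a change in RNA per cell cannot be told apart.

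Transcription start windows of members at both ends of the response are shown because the first transcribed bases define the TOP tract. Each is read 5′ to 3′ from RefSeq on GRCm38.p6, with the first 5 bases from the annotated start in capitals, preceded and followed by 10 bases. Rpl38, Rpl28 and Rpl35 were among the members with the largest rises, Rps27 was called in no comparison with sham, and Rpl22l1 and Rpl3l are the paralogues with the largest rise and the only fall against sham.
Rpl38, chr11:114668570-114668594, plus strand: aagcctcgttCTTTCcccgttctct
Rpl28, chr7:4792955-4792979, plus strand: tctcgtgtctCTCTTtccgtctccg
Rpl35, chr2:39005117-39005141, minus strand: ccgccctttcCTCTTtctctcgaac
Rps27, chr3:90213634-90213658, minus strand: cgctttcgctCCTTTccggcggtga
Rpl22l1, chr3:28805498-28805522, plus strand: gcgcaagcccGTTCTcttcccacgg
Rpl3l, chr17:24727816-24727840, plus strand: ttctagctctGTCATttgacctctg
The first 4 windows start with a C and 4 pyrimidines, whereas those of Rpl22l1 and Rpl3l start with a G. Rps28, also among the largest rises, has a matched window that lacks this start and is not shown. RefSeq start windows (250 bases before to 50 after the start) were matched for 64 of the 84 members. Of these, 13 (20.3%) had a C at the start and pyrimidines at the next 4 bases, against 3.01% of 27025 genes. On either strand of the window, CTTTCC was found in 53.1% of members and 29.3% of genes, CTTCCGG in 40.6% and 9.93%, and the E-box CACGTG in 9.38% and 8.09%. Matches of CTTTCC and CTTCCGG can overlap at their ends. An annotated start that is off by a base would hide a TOP tract, and a match is a description of letters.

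Gene counts summed to 13407465 to 17181458 in each library, and members took 127340 to 258518 of them. All 10 ventricular cardiomyocyte markers were detected in every group. Reads of the mitochondrial genome made up 28.9% to 33.2% of counts in sham libraries and 19.0% to 30.2% in the others. In 1 h replicate 1, members summed to 18241 CPM (read counts scaled to library size with TMM factors), against 11612 and 11380 CPM in replicates 2 and 3, so results at 1 h are also given without it. Ischemia replicate 3 differed from replicates 1 and 2 in the trend of expression on GC content described further down. It also had fewer reads of the mitochondrial genome (19.0%, against 30.2% and 29.7%) and fewer duplicates (41.2%, against 52.7% and 54.5%). Duplicates made up 50.1% to 54.4% of counts in sham, 44.7% to 52.0% at 1 h, 41.9% to 45.5% at 6 h and 39.2% to 47.7% at 12 h. How far such library traits contribute to differences from sham was not tested.

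Members summed to 1.41% ± 0.025 of reads from nuclear genes in sham hearts, 1.67% ± 0.046 after ischemia alone, 1.71% ± 0.090 at 0.5 h of reperfusion, 1.80% ± 0.447 at 1 h, 1.55% ± 0.078 at 1.5 h, 1.64% ± 0.052 at 3 h, 1.80% ± 0.073 at 6 h and 1.85% ± 0.047 at 12 h (SD, n = 3 each). The lowest of the 21 other libraries, at 1.47%, lay above the highest sham library, at 1.42%. The members' share was thus higher in all 7 groups than in sham.

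Per kilobase of deposited exon length, averaged over all 24 libraries, the highest members were Rplp1 (492 CPM per kb) and Rplp0 (379 CPM per kb), proteins of the acidic stalk that binds elongation factors, followed by Rps3a1 (311 CPM per kb), Rpl36 (304 CPM per kb) and Rps2 (301 CPM per kb). The lowest with any reads were Rpl39l (0.0823 CPM per kb), Rpl24 (2.81 CPM per kb) and Rpl22l1 (4.21 CPM per kb). Rpl24 shares 484 of its 1030 exon bases with the same-strand transcript Gm28037, so its count may miss reads. How deposited lengths were made is not stated in the sources used here. Some are longer than 1 representative transcript (Rpl3, 3119 against 1351 bases) and some shorter (Rps24, 840 against 1613 bases). Levels per kilobase therefore depend on the length used. Per kilobase of 1 representative transcript, Rps2 had 552 CPM per kb and Rplp1 488 CPM per kb.

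Cytosolic ribosomal protein mRNAs were broadly higher after reperfusion than in sham hearts, with the most calls at 6 h under TMM scaling. With library totals in place of TMM, 65 members were called higher at 6 h and 71 at 12 h. That scaling also raised the median log2 fold change of all genes, to 0.037 at 6 h and 0.23 at 12 h. The share of all genes called under it is not given here. Of the 82 tested members, 35 were called higher at 0.5 h, 42 at 1 h, 11 at 1.5 h, 47 at 3 h, 59 at 6 h and 41 at 12 h. Only Rpl3l, at 12 h, was called lower in any comparison with sham. Calls are at an adjusted p under 0.05 in edgeR's quasi-likelihood test, with Benjamini-Hochberg adjustment over 15128 genes. Among all tested genes, 7.43% were higher and 4.48% lower at 0.5 h, 7.46% and 3.41% at 1 h, 4.55% and 2.99% at 1.5 h, 18.4% and 16.9% at 3 h, 24.6% and 22.9% at 6 h, and 16.9% and 14.9% at 12 h. The members' shares called higher were 42.7% at 0.5 h, 51.2% at 1 h, 13.4% at 1.5 h, 57.3% at 3 h, 72.0% at 6 h and 50% at 12 h. All these comparisons share the 3 sham libraries.

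**Figure D1:**
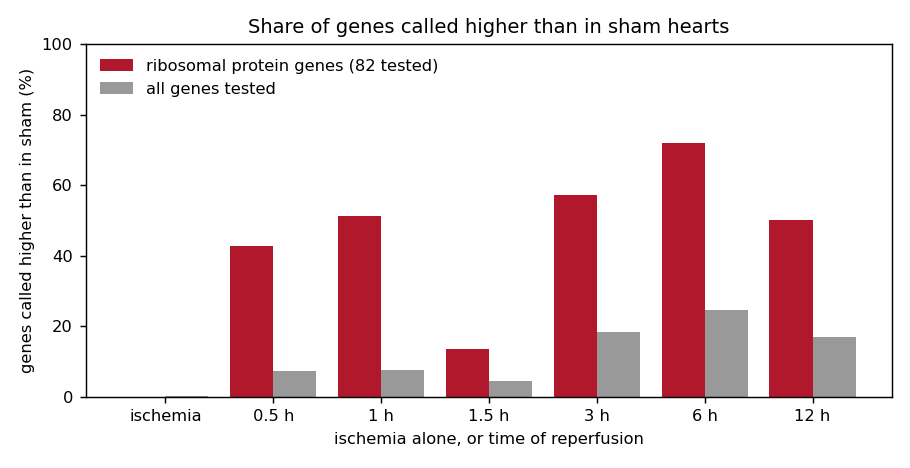
Share of genes called higher than in sham (percent, edgeR adjusted p under 0.05) for each group, with red bars for the 82 ribosomal protein genes tested and grey bars for all 15128 genes tested. The red bar reaches 72.0% at 6 h, where the grey bar is at 24.6%, and both are near 0 after ischemia alone.

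The typical change was modest. The median log2 fold change of the 82 members against sham was 0.32 at 0.5 h, 0.47 at 1 h, 0.27 at 1.5 h, 0.40 at 3 h, 0.55 at 6 h and 0.38 at 12 h, whereas the median of all genes lay between -0.01 and 0.01. At 6 h, 77 of 82 fold changes were positive and 16 members were called with more than a doubling. The share of all genes called with more than a doubling was not counted. Both subunits were represented at 6 h, when 37 of 50 large-subunit genes (median 0.55) and 22 of 32 small-subunit genes (median 0.48) were higher. At 12 h these counts were 29 of 50 (median 0.43) and 12 of 32 (median 0.32), and the difference between subunits was not tested. Without 1 h replicate 1, the library that stands apart, 20 members were called higher at 1 h and the median was 0.21. The share of all genes called in that fit is not given here.

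After ischemia alone, 0 members were called, and among all genes 0.0925% were called higher and 0% lower. At an unadjusted p under 0.05 in edgeR, 36 of 82 members differed, beside 1296 of all 15128 genes. DESeq2 called 2 members and limma-voom 0, and the shares of all genes they called are not given here. Fold changes were nonetheless positive for 80 of 82 members, with a median of 0.27. The 3 ischemia libraries were unlike each other for many members. Rpl28, a large-subunit protein without a bacterial counterpart, had 60.6, 102 and 145 CPM after ischemia, against 64.3, 66.2 and 57.1 CPM in sham hearts. Replicate 1 lay within the sham range and replicate 3 at the level of reperfused hearts. Replicate 3 is also the ischemia library with fewer duplicates and fewer mitochondrial reads.

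**Figure D2:**
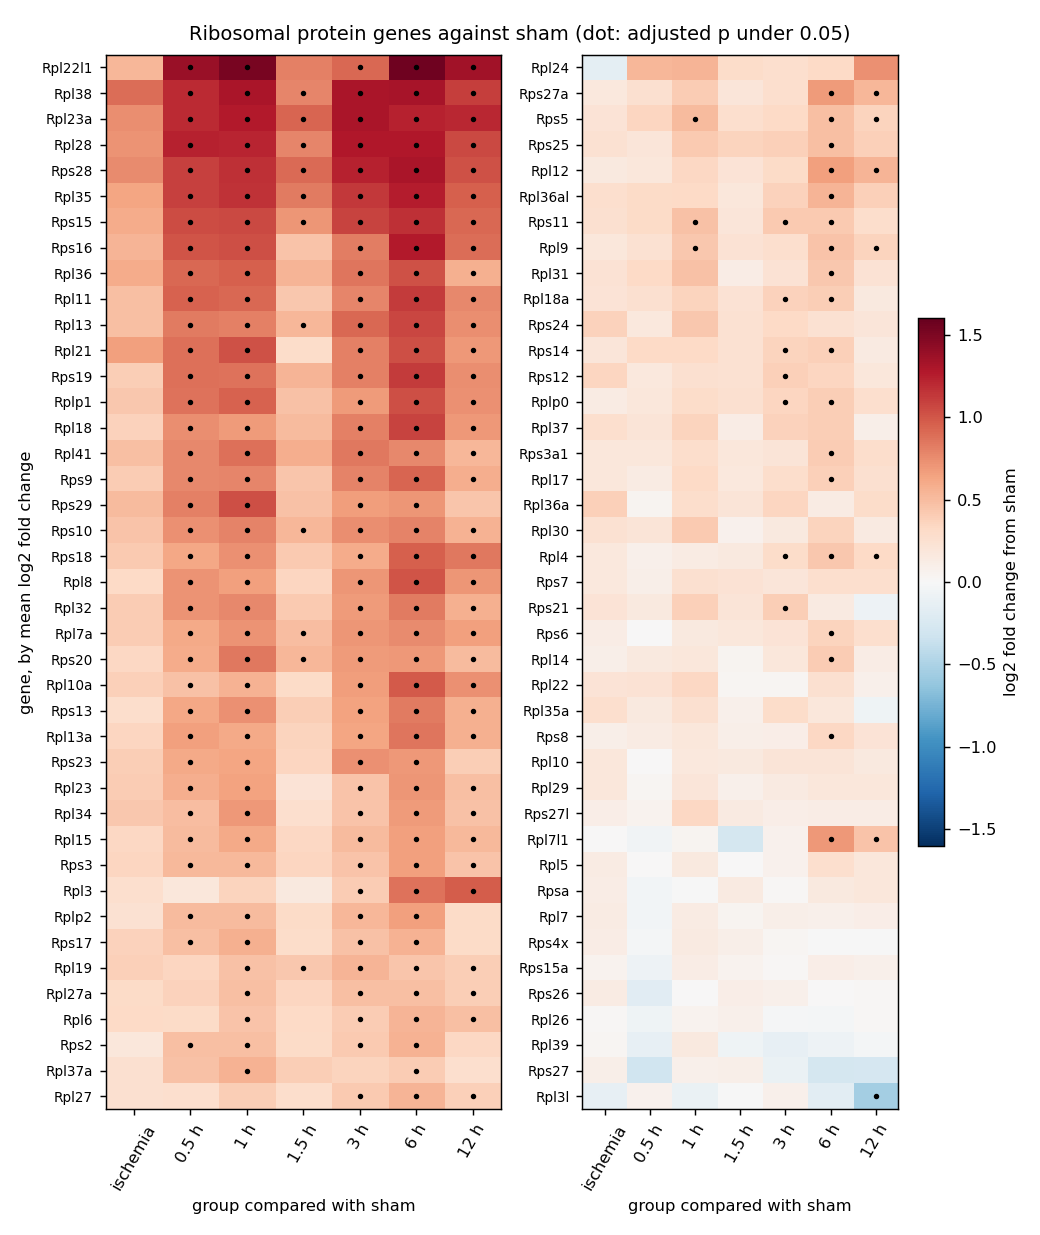
Log2 fold change from sham (colour) of the 82 tested members (rows, ordered by their mean fold change, split over both panels) in each group (columns), with a dot where the adjusted p was under 0.05. Red fills the left panel at 6 h, and the blue cell with a dot at the bottom right is Rpl3l at 12 h.

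Every comparison below is with the same 3 sham libraries. Rpl22l1, Rpl23a, Rpl38, Rpl28, Rps28 and Rpl35 filled the places for the 4 largest rises at every time. Rpl38, a large-subunit protein known in mouse embryos for its role in translating Hox mRNAs, had 47.5, 53.5 and 44.5 CPM at 6 h and 39.6, 46.1 and 40.2 CPM at 12 h, against 19.2, 17.1 and 22.2 CPM in sham hearts. The groups did not overlap. Its log2 fold change was 1.32 ± 0.21 (SE, adjusted p = 1.68e-05) at 6 h and 1.11 ± 0.21 (adjusted p = 0.000245) at 12 h by edgeR.

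Rpl23a, which lies near the exit of the peptide tunnel, reached 112, 97.5 and 107 CPM within 0.5 h of reperfusion, against 44.4, 51.6 and 42.8 CPM in sham hearts, a log2 fold change of 1.19 ± 0.19 (edgeR adjusted p = 0.000643). At 12 h it had 103, 110 and 108 CPM, a log2 fold change of 1.21 ± 0.19 (adjusted p = 4.23e-05). Each reperfused library was above every sham library. Rps28, a small-subunit protein, had 36.0, 42.3 and 37.1 CPM at 6 h, against 15.9, 15.4 and 15.4 CPM in sham hearts, a log2 fold change of 1.30 ± 0.20 (edgeR adjusted p = 1.15e-05). Reads of some of these genes are of uncertain origin, because the strand setting of the counting is not given in the sources used here and they overlap genes on the other strand. Rpl23a shares 506 of 847 exon bases with Tlcd1 and Rpl35 shares 821 of 1241 with Wdr38, whereas Rps28 shares 88 of 1719 with Kank3 and Rpl28 shares 183 of 1840 with Ube2s.

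**Figure D3:**
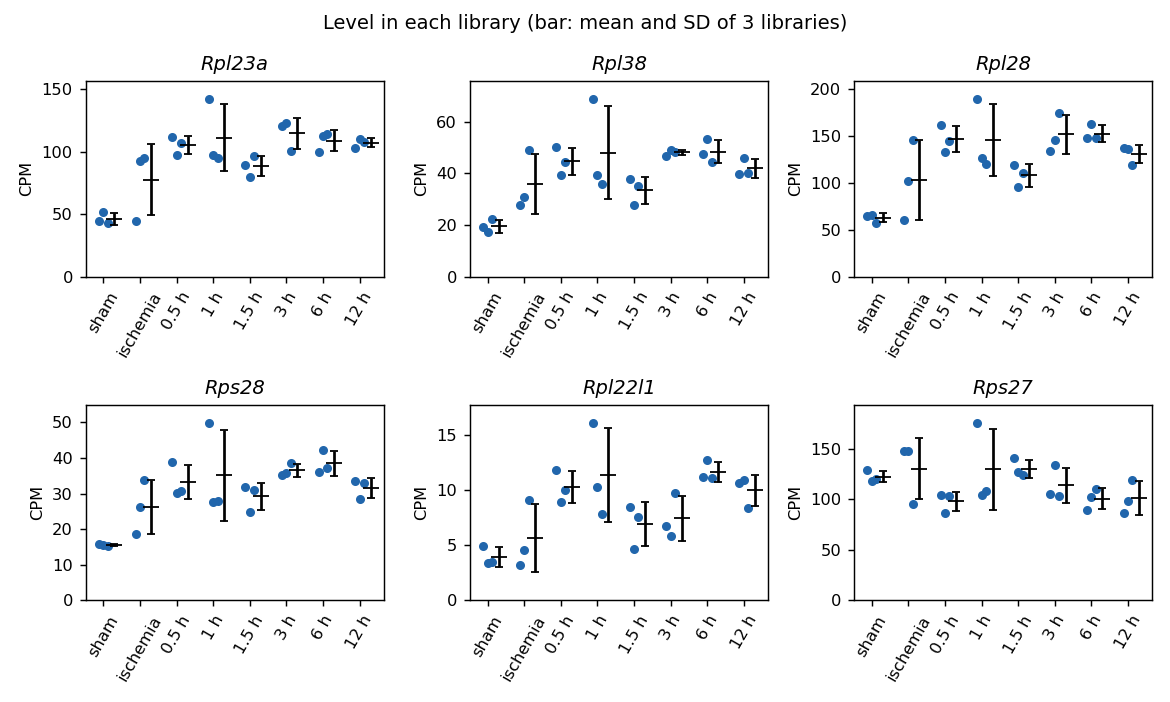
CPM (TMM-scaled, linear axis from 0) of 6 members in each of the 24 libraries, with 1 blue point per library and a black bar for the mean and SD of the 3 libraries of a group. Rpl23a, Rpl38, Rpl28, Rps28 and Rpl22l1 are higher in reperfused groups than in sham, 1 h replicate 1 is the highest point in each panel, and Rps27 shows no such step.

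Calls recurred across times for some members. A set of 36 members was called higher at 3, 6 and 12 h alike, and 10 members (Rpl7a, Rpl13, Rpl23a, Rpl28, Rpl35, Rpl38, Rps10, Rps15, Rps20 and Rps28) were called at every reperfusion time. The second set rests on the 11 calls at 1.5 h, which fell to 2 without sham replicate 1 or without 1.5 h replicate 3. At the other end, 20 members were called in no comparison with sham, among them Rpsa, the laminin receptor precursor, Rps4x, Rpl7, Rpl5 and Rps27. For these sets of 36, 10 and 20 members, the share of all genes meeting the same criteria was not counted. With the GC correction described further down, 8 of the 20 were called in at least 1 comparison (Rpl5, Rpl22, Rpl30, Rpl35a, Rpl36a, Rpl37, Rps24 and Rps27l), 6 of them higher at 6 h. Rps27, a zinc finger protein of the small subunit, had 90.0, 102 and 110 CPM at 6 h, against 129, 118 and 120 CPM in sham hearts (log2 fold change -0.28 ± 0.18, edgeR adjusted p = 0.201). Rps4x had 241, 251 and 257 CPM at 6 h, against 251, 246 and 253 CPM in sham hearts (log2 fold change 0.00 ± 0.13, edgeR adjusted p = 0.986). Members of 1 particle thus differed by more than a doubling in how far their mRNAs moved. Across all 8 groups, 45 of 82 members (54.9%) were called by edgeR's test for any difference, below the 64.3% of all genes. Without 1 h replicate 1 the members' count was 65, and the share of all genes in that fit is not given here.

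Rpl3l and Rpl3, which occupy the same place in the ribosome, differed in opposite directions from sham at 12 h. Rpl3l (chr17:24727820-24736143, plus strand) had 135, 119 and 138 CPM at 12 h, against 206, 177 and 191 CPM in sham hearts. All 12 h libraries were below all sham libraries, and the log2 fold change was -0.55 ± 0.12 (edgeR adjusted p = 0.00118). Rpl3 (chr15:80077791-80091868, minus strand) had 185, 254 and 221 CPM at 12 h, against 115, 107 and 117 CPM in sham hearts, a log2 fold change of 0.96 ± 0.12 (edgeR adjusted p = 2.74e-06). At 6 h Rpl3 had risen by 0.87 ± 0.12 (adjusted p = 4.56e-06), while Rpl3l stood at -0.17 ± 0.12 (adjusted p = 0.247).

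The log2 ratio of Rpl3l to Rpl3 reads was -0.45, -1.09 and -0.69 at 12 h, against 0.84, 0.73 and 0.71 in sham hearts. It averaged -0.74 ± 0.33 at 12 h and 0.76 ± 0.067 in sham (SD, n = 3 each), a difference of -1.50, and the groups did not overlap. The 2-sided exact permutation p was 0.1, the smallest that 3 against 3 allows, and 0.15 after Benjamini-Hochberg adjustment over the 21 ratio tests. At 6 h the ratio averaged -0.28 ± 0.26, a difference from sham of -1.04 with the same exact p of 0.1. Earlier groups also lay below sham without overlap, by -0.39 after ischemia alone, -0.45 at 1 h and -0.16 at 1.5 h (exact p = 0.1 each), whereas at 0.5 h (-0.11) and 3 h (-0.34) they overlapped with sham (exact p = 0.3 each). Rpl3 reads outnumbered Rpl3l reads in all 6 libraries of 6 and 12 h and in no other library. Per kilobase of 1 transcript each, Rpl3l stood at 0.461 to 0.719 of the Rpl3 level at 12 h and at 1.61 to 1.75 times that level in sham. Per kilobase of deposited length, Rpl3l stood at 1.39, 0.890 and 1.18 times the Rpl3 level at 12 h and at 3.11 to 3.39 times in sham. Which paralogue was higher at 12 h thus depended on the length used. Summed ventricular cardiomyocyte markers were at 47142 to 56575 CPM at 12 h, against 67505 to 70781 CPM in sham, and their part in the ratio was not tested.

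**Figure D4:**
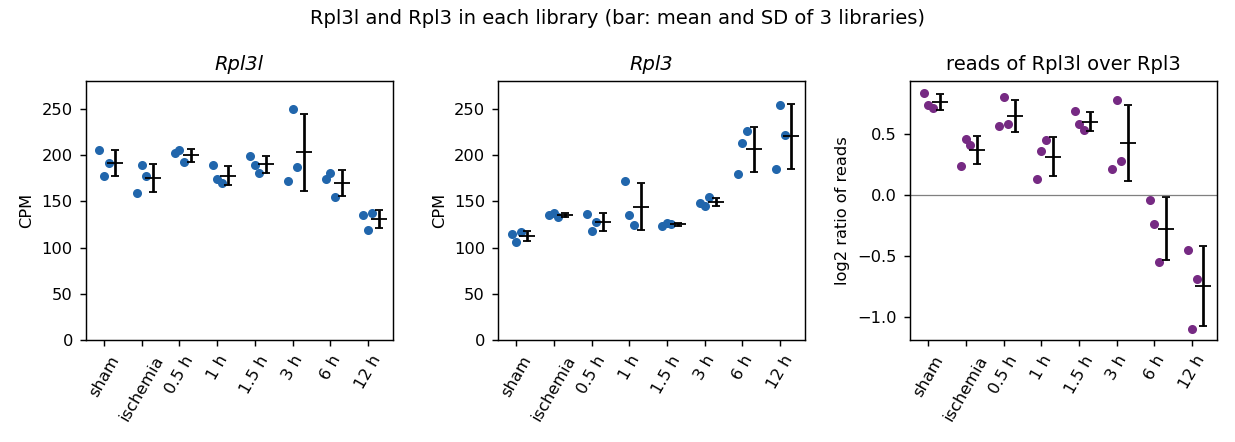
CPM of Rpl3l (left) and Rpl3 (middle) and the log2 ratio of their reads (right) in each of the 24 libraries, with a black bar for the mean and SD of 3 libraries. The ratio is below 0 in all 6 libraries of 6 and 12 h and above 0 in the rest.

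Other paralogues had the following values. Rpl22l1 had 11.1, 12.7 and 11.0 CPM at 6 h, against 4.94, 3.36 and 3.44 CPM in sham hearts, a log2 fold change of 1.56 ± 0.31 (edgeR adjusted p = 0.000251). Its paralogue Rpl22 had 93.9, 115 and 99.2 CPM at 6 h, against 80.3, 89.5 and 88.4 CPM in sham hearts (log2 fold change 0.25 ± 0.13, adjusted p = 0.114), and with the GC correction it was called higher (0.38, adjusted p = 0.0169). The log2 ratio of Rpl22l1 to Rpl22 differed from sham by 1.33 at 6 h and 1.27 at 12 h (exact p = 0.1 for each, the smallest possible), and Rpl22 had more reads than Rpl22l1 in each group.

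The Rps27l to Rps27 log2 ratio differed from sham by 0.40 at 12 h (exact permutation p = 0.1), although neither gene was called there: Rps27l had a log2 fold change of 0.12 ± 0.14 and Rps27 one of -0.27 ± 0.18. Rpl7l1, a paralogue of Rpl7, was higher at 6 h (log2 fold change 0.70 ± 0.12, adjusted p = 6.51e-05), while Rpl7 stood at 0.08 ± 0.14 (adjusted p = 0.644). Rpl36al was higher at 6 h (0.54 ± 0.15, adjusted p = 0.00560), and Rpl36a stood at 0.13 ± 0.18 (adjusted p = 0.573). The difference within these last pairs was not tested.

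Several members have roles beyond the ribosome. Rpl5 and Rpl11 bind 5S ribosomal RNA and, when free, the p53 regulator Mdm2. Rpl11 had 156, 184 and 168 CPM at 6 h, against 74.7, 79.3 and 81.4 CPM in sham hearts (log2 fold change 1.11 ± 0.17, edgeR adjusted p = 1.36e-05), and Rpl5 had 231, 267 and 257 CPM at 6 h, against 211, 203 and 212 CPM in sham hearts (0.27 ± 0.13, adjusted p = 0.0878). With the GC correction Rpl5 was called higher at 6 h (0.52, adjusted p = 0.000785) and Rpl11 stood at 1.06; the difference between both genes was not tested. Rps19, mutated in human Diamond-Blackfan anaemia, was higher by 1.12 ± 0.19 at 6 h (adjusted p = 3.99e-05). Rpl13a, known in human cells as part of an interferon-triggered translational silencer, was higher by 0.86 ± 0.15 (adjusted p = 5.60e-05). Rps6, the substrate of the S6 kinases, was higher by 0.35 ± 0.13 (adjusted p = 0.0264) and Rplp0, often used as a reference gene, by 0.39 ± 0.12 (adjusted p = 0.0101). Rps27a, made as a fusion with ubiquitin, was higher by 0.68 ± 0.15 (adjusted p = 0.000686).

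Few members were called in the 3 steps between successive times that were tested. From 1.5 to 3 h of reperfusion, 0 members were called (5.36% of all genes were higher and 3.17% lower). At an unadjusted p under 0.05 in edgeR there were 9 of 82 members, beside 3513 of all 15128 genes, so the members' share was below that of all genes. DESeq2 and limma-voom called 0 members each. From 3 to 6 h, 3 members were called higher and 0 lower, against 14.7% and 13.2% of all genes, so the members' share was below the background in the main fit. These were Rpl7l1 (49.7, 67.5 and 64.2 CPM at 6 h, against 42.8, 34.9 and 40.0 CPM at 3 h), Rpl3 (179, 213 and 226 CPM at 6 h, against 148, 145 and 154 CPM at 3 h) and Rps27a. With GC and length correction more members were called in this step, as given in the last section. The share of all genes in that corrected fit is not given here. From 6 to 12 h, 0 members were called higher and 1, Rpl3l, lower, against 6.49% and 6.68% of all genes. Rpl3l had 135, 119 and 138 CPM at 12 h, against 174, 181 and 154 CPM at 6 h (log2 fold change -0.38 ± 0.12, edgeR adjusted p = 0.0400), and this call was lost under 10 of the alternatives tried. The members' median from 6 to 12 h was -0.18, beside a median of -0.02 for all genes. With library totals in place of TMM these medians were -0.01 and 0.15.

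The size of a member's change went with the GC content of its transcript. Members range from 40.6% to 60.8% GC. Across the 82 members, Spearman's rho between GC content and log2 fold change lay between 0.34 and 0.41 for the 6 reperfusion times and was 0.38 at 6 h; across the 15069 genes with a GC value it was 0.28 at 6 h. These points share libraries and are a description. At 6 h, the 27 members highest in GC had a median log2 fold change of 0.80 (24 called higher), the 27 in the middle 0.55 (20 called) and the 28 lowest 0.40 (15 called). All genes showed the same gradient at 6 h, with a median of 0.36 in the 10% of genes with the highest GC content and -0.36 in the 10% with the lowest. Per library, a slope on GC content was fitted to the deviations of log2 CPM from each gene's mean over the 24 libraries. This slope, relative to the average library, was between -0.28 and -0.22 per 10 percentage points in sham. It was -0.32, -0.23 and 0.18 in ischemia replicates 1, 2 and 3, and between -0.07 and 0.20 in the reperfused libraries. Whether this slope arose in the hearts or in library preparation was not tested.

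With each library's GC trend removed before the test, an alternative chosen after the data were seen, edgeR called 25 members higher at 0.5 h, 42 at 1 h, 8 at 1.5 h, 46 at 3 h, 60 at 6 h and 40 at 12 h. Among all genes, 3.04% were then called higher at 0.5 h, 6.11% at 1 h, 4.55% at 1.5 h, 17.1% at 3 h, 25.1% at 6 h and 16% at 12 h. Median log2 fold changes of the members were close to those before the correction, at 0.53 at 6 h and 0.38 at 12 h. Rpl3l, which is rich in GC, fell further after correction (-0.72, adjusted p = 0.000131, at 12 h) and was also called lower at 6 h (-0.37, adjusted p = 0.0181). Members also have short transcripts (median 768 bases, against 2713 for all genes), and with a length trend removed as well their median was 0.41 at 6 h and 0.33 at 12 h.

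**Figure D5:**
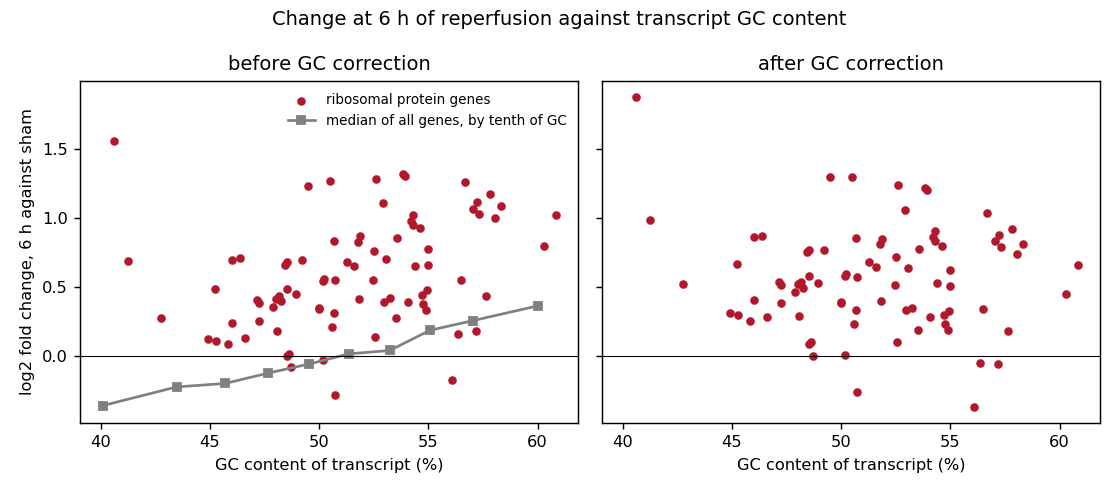
Log2 fold change at 6 h of reperfusion against sham (vertical) by GC content of the transcript (percent, horizontal) for the 82 members (red points), before (left) and after (right) removal of each library's GC trend. Grey squares are the medians of all genes in bins of 10% of genes by GC content, which climb across the left panel from -0.36 to 0.36, and most red points stay above 0 in the right panel.

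Reads shared with pseudogenes altered little. A median of 97.3% of a member's reads mapped uniquely, with the lowest share, 85.8%, for Rps21. The 268 annotated ribosomal protein pseudogenes held reads equal to 2.02% of the members' unique reads and 3.75% when multiply mapped reads were counted. With those reads included, 59 members were called at 6 h by both counts, 0 by unique counts alone and 2 by the wider counts alone.

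Members with and without a TOP-type start overlapped in their changes. Of the 13 members with a TOP-type start, 9 were called higher at 6 h (median log2 fold change 0.65, range -0.28 to 1.32), and of the other 49 tested members with a RefSeq window 33 were (median 0.49, range -0.17 to 1.56). At 12 h the counts were 6 of 13 (median 0.31) and 25 of 49 (median 0.38). Rpl38 and Rps27 are the ends of the range for TOP-type starts at 6 h.

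Many translation factors and other mRNAs known to carry a TOP tract were higher at the same times. Of 29 tested, 5 were higher at 0.5 h, 14 at 3 h, 19 at 6 h and 14 at 12 h, and 0 were lower. Among all genes, 7.43%, 18.4%, 24.6% and 16.9% were higher at those times. Their median log2 fold change was 0.49 at 6 h. Among the largest at 6 h were the noncoding host genes Snhg5 (1.75 ± 0.20) and Gas5 (1.69 ± 0.17) and the RNA-binding protein Hnrnpa1 (1.08 ± 0.12).

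Genes of mTOR signalling and other regulators of ribosomal protein mRNAs were mixed, with 8 of 30 higher and 2 lower at 6 h and a median of 0.15. Among all genes, 24.6% were higher and 22.9% lower at 6 h, so the share called higher was near the background. The genes named next are called ones with the largest changes in this list. Myc, a transcription factor that drives ribosome production, was higher by 3.25 ± 0.34 (edgeR adjusted p = 5.08e-08), as was the translation repressor Eif4ebp1 by 1.14 ± 0.20 (adjusted p = 5.50e-05). Ddit4l, an mTOR inhibitor, was at -2.09 ± 0.52 (adjusted p = 0.00201). Of 18 tested genes for chaperones, assembly and surveillance of ribosomal proteins, 14 were higher at 6 h and 9 at 12 h, and 0 were lower at either time. The share of all genes called higher was 24.6% at 6 h and 16.9% at 12 h. Grwd1, whose yeast counterpart is a chaperone of Rpl3, was higher by 2.07 ± 0.19 at 6 h (adjusted p = 6.64e-09) and Rrs1, whose yeast counterpart brings Rpl5 and Rpl11 to the ribosome precursor, by 1.50 ± 0.18 (adjusted p = 4.03e-07).

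Proteins of the mitochondrial ribosome, which are also nuclear-encoded, were counted in the same way. Of 77 tested, 26 were higher and 0 lower at 0.5 h and 23 higher and 0 lower at 1 h, when 7.43% and 7.46% of all genes were higher. At 0.5 and 1 h the share called higher was thus above the background in both ribosomes. At 6 h, 19 of 77 were higher, near the 24.6% of all genes, and 13 lower. At 12 h, 4 were higher and 10 lower, beside 16.9% and 14.9% of all genes. Their median was -0.10 at 12 h, when the cytosolic members' median was 0.38. The difference between both sets was not tested.

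Markers of infiltrating and resident cells moved in the same libraries. The 12 neutrophil markers summed to 138 to 277 CPM at 6 h and 215 to 254 CPM at 12 h, against 5.21 to 10.8 CPM in sham, where Ly6g was at 0. The 14 monocyte and macrophage markers summed to 497 to 589 CPM at 6 h, against 437 to 456 CPM in sham, and the 10 fibroblast markers to 1348 to 1910 CPM at 6 h, against 2345 to 2430 CPM. The 10 endothelial markers summed to 2214 to 2316 CPM at 6 h, against 1532 to 1844 CPM in sham. Except for neutrophils, calls at 6 h went both ways within these lists. Monocyte and macrophage markers had 10 higher and 2 lower, fibroblast markers 3 higher and 6 lower, and endothelial markers 4 higher and 1 lower. All 9 tested neutrophil markers were higher. Among all genes, 24.6% were higher and 22.9% lower. At 0.5 h, neutrophil markers summed to 11.9 to 19.5 CPM. The part of these cells in the members' levels was not tested.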

How the data were processed

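Per the file headers, the authors deposited whole-number read counts per Ensembl gene, with and without multiply mapped reads and duplicates, beside gene lengths. The submitters' processing notes name build mm10; the sources used here name no aligner, counter, strand setting or annotation release. Unique counts with duplicates kept (13407465 to 17181458 per library) were the main values. Biotypes, positions and transcripts came from GENCODE vM21, start windows from RefSeq. GC content is that of the shortest of equally supported principal transcripts; the longest was used first and replaced after its counts were seen, and is kept as an alternative. All 24 libraries entered 1 edgeR 4.0.16 fit (R 4.3.3, TMM, filterByExpr with minimum count 10, 16 residual degrees of freedom), tested on simulated data. DESeq2 1.42.0, limma-voom (limma 3.58.1), other counts, scalings and filters were alternatives. CPM are TMM-scaled and log2 fold changes carry model standard errors. Floors and errors cover counting of reads without molecular identifiers. Members, lists and comparisons were chosen with earlier results of these data known. Genes named were the 4 largest called rises and falls against sham, the 2 largest per step, paralogues, and list leaders. A gene of 1 list is not reported here.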

Additional observations from a re-analysis of the deposited data

Results flagged for a closer look

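A test of successive times found a difference for 4 members. From 3 to 6 h of reperfusion, Rpl7l1 was higher at 6 h by 0.62 on the log2 scale (60.5 CPM at 6 h and 39.2 CPM at 3 h), Rpl3 by 0.46 (206 CPM at 6 h and 149 CPM at 3 h) and Rps27a by 0.41 (158 CPM at 6 h and 118 CPM at 3 h). From 6 to 12 h, Rpl3l differed by -0.38 (131 CPM at 12 h and 170 CPM at 6 h). The edgeR adjusted p was 0.000587 for Rpl7l1, 0.00659 for Rpl3, 0.0410 for Rps27a and 0.0400 for Rpl3l.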

How the results depend on the processing

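Counts of members called (82 tested) changed by over 1.5 times as follows. Without the filter, 10 were called after ischemia, 23 at 1.5 h, 3 from 1.5 to 3 h and 5 from 3 to 6 h. DESeq2 called 2 after ischemia. With only the groups compared in the fit, 24 were called at 1 h, 41 at 1.5 h and 2 from 1.5 to 3 h. With library totals, which raise the median of all genes at 12 h to 0.23, 72 were called at 12 h, 5 from 3 to 6 h and 0 from 6 to 12 h. Without duplicates, 1 was called from 1.5 to 3 h. GC correction, by the shortest or the longest transcript, gave 1 from 1.5 to 3 h and 0 from 6 to 12 h. By the longest transcript, 27 were called at 0.5 h, 41 at 1 h, 9 at 1.5 h, 42 at 3 h, 63 at 6 h and 39 at 12 h. GC and length correction gave 27 at 1 h, 4 from 1.5 to 3 h and 18 from 3 to 6 h. The cause was not tested. Leaving out 1 library at a time gave 0 to 5 after ischemia (5 without ischemia replicate 1), 20 to 32 at 0.5 h (20 without 0.5 h replicate 1, 23 without sham replicate 3), 20 to 54 at 1 h (20 without 1 h replicate 1), 2 to 14 at 1.5 h (2 without sham replicate 1 or 1.5 h replicate 3), 34 to 46 at 3 h, 48 to 59 at 6 h, 33 to 38 at 12 h, 0 to 1 from 1.5 to 3 h, 2 to 4 from 3 to 6 h, 0 to 1 from 6 to 12 h and 36 to 65 across the 8 groups. Deviations of same-numbered libraries correlated at -0.12 to 0.15, so no strong shared effect of replicate number was seen. Whether same-numbered libraries were handled together is not stated in the labels. With the replicate block, 34 members were called at 0.5 h, 41 at 1 h, 8 at 1.5 h, 45 at 3 h, 60 at 6 h, 40 at 12 h and 42 across the 8 groups. The Rpl3l to Rpl3 difference at 12 h lay between -1.65 and -1.33 under all alternatives. Named members kept their direction under every alternative. Calls were lost by Rpl35 and Rpl28 at 1.5 h, each without any 1 of 4 libraries (sham replicates 1 and 3, 1.5 h replicates 1 and 3; adjusted p up to 0.0789 and 0.0841), and by Rpl3l from 6 to 12 h under 10 alternatives (up to 0.201).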
